A study of Mus musculus with 6 samples.

Results

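The genes described here are Apoe and Apoc2, the 2 liver X receptor genes Nr1h3 and Nr1h2, and 4 genes known as targets of these receptors, Abca1, Abcg1, Mylip and Srebf1. They were selected by symbol from the deposited expression table, with their fold changes already known, and all 8 named genes were found among its 12161 genes. RNA-seq was done on LSK cells of mouse bone marrow (lineage-negative, Sca1-positive, Kit-positive), the fraction that holds blood stem cells and early progenitors. All groups came from C57BL/6 mice. LSK cells were transduced on retronectin and kept for 2 days with 10 ng/mL IL-3, 10 ng/mL IL-6, 50 ng/mL SCF and 50 ng/mL Flt3 ligand, and GFP-positive cells were then sorted. The control group carried the retroviral vector MIG and has the genotype label wild-type. The other group carried MIG-Hhex, with the genotype label Hhex, which adds the homeodomain transcription factor Hhex. Each group has 3 biological replicates, WT3, WT691 and WT703, and the comparison asks how expression in cells given MIG-Hhex differs from that in cells given MIG. Both groups share the virus, the culture, the cytokines and the sort for GFP, and bulk RNA gives 1 value per library for the whole sorted population.

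Liver X receptors are nuclear receptors that are switched on by oxysterols, which build up when a cell holds excess cholesterol. They bind DNA together with a retinoid X receptor, at direct repeats spaced by 4 bases, and raise transcription of genes that move cholesterol out of the cell or lower its uptake. Abca1 and Abcg1 are membrane transporters that hand cholesterol to apolipoprotein particles, Apoe is an apolipoprotein that accepts cholesterol and binds lipoprotein receptors, and Apoc2 is the cofactor that activates lipoprotein lipase. In mice, Apoe and both transporters are known to restrain the proliferation of blood stem and progenitor cells by way of cholesterol efflux.

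The promoters of the members are shown here to place the known receptor element before the expression values. RefSeq windows on GRCm38.p6, each from 250 bases before to 50 bases after an annotated start, were matched for 7 of the 8 members, in 12 windows, and Abcg1 was not matched. A relaxed form of the receptor's direct repeat, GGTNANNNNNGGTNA, was searched on both strands of every window in the table. It occurred in 236 of 32851 windows (0.718%), and in windows of 2 of the 7 members, Abca1 and Srebf1. The 4 windows below are those of the 2 members with a match and those of the 2 members with the largest differences in expression, each 300 bases long and written 5′ to 3′ along the gene, on the minus strand of its chromosome. Capitals mark the match to the repeat.
Abca1 chr4:53159846-53160145: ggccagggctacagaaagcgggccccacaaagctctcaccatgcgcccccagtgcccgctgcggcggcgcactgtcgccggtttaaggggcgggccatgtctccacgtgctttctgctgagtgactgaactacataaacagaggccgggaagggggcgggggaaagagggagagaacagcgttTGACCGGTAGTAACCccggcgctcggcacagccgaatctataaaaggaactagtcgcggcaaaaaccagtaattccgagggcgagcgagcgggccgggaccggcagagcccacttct
Srebf1 chr11:60210422-60210721: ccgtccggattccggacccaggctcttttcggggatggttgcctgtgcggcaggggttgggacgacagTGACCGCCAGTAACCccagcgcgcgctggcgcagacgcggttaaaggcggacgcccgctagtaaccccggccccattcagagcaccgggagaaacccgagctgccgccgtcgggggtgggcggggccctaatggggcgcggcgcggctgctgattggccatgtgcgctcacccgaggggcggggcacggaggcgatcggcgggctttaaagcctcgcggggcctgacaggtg
Apoc2 chr7:19677892-19678191: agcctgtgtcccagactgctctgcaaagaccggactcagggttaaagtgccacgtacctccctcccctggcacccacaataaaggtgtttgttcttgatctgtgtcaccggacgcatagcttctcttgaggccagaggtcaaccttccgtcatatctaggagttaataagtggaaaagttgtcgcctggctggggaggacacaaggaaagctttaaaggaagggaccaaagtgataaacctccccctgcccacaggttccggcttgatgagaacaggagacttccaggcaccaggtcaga
Apoe chr7:19699139-19699438: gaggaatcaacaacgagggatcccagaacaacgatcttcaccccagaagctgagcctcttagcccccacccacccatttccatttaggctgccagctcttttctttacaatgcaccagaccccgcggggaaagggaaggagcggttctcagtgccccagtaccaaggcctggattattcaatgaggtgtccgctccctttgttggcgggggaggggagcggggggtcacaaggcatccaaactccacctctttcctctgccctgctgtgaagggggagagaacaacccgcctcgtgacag
In the Abca1 window the element lay 67 bases upstream of the start and read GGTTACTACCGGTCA on the opposite strand. The Srebf1 element lay 182 bases upstream of one of its 3 annotated starts and read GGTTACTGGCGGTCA on the opposite strand. No window of Apoc2 (1 window), Apoe (3 windows), Nr1h2, Nr1h3 or Mylip held the relaxed repeat. The strict form, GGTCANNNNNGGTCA, occurred in 25 of the windows searched (0.0761%) and in none of the members' windows. As background, Apoe and Apoc2 are known to be controlled in macrophages from distant enhancers of their shared gene cluster, which lie outside such windows. A match is a match of letters and does not show that a receptor is bound there.

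Expression values are the authors' log2 values, which appear to be per unit of gene length, and read depth is unknown. Library medians were close, from 3.56 to 3.60. Hhex itself was 5.12 ± 0.07 (SD, n = 3) in the MIG libraries and 8.67 ± 0.93 (n = 3) in the MIG-Hhex libraries, and all 3 MIG-Hhex libraries lay above all 3 MIG libraries. The labels place both WT3 libraries on flow cell C3RJFACXX and the other 4 libraries on flow cell C5LWPANXX, so flow cell was a term of the fit. The WT3 libraries stood apart in a marker that defined the sort: Ly6a, which encodes Sca1, was 3.18 and 3.55 there and 5.89 to 6.25 in the other 4 libraries. Lyz2, the lysozyme of monocytes and granulocytes, was 9.51 and 10.02 in the WT3 libraries and 6.95 to 8.32 in the others. All 11 genes of a list of LSK markers were measured, and 0 were higher and 1, Meis1, was lower with MIG-Hhex, a call lost without either WT3 library (limma adjusted p of up to 0.0584). With the replicate number as a block 3 were lower, Meis1, Flt3 and Cd48. Each member is therefore given per library, so that the WT3 pair can be read separately. In the fit over all genes (limma, Benjamini-Hochberg adjusted p below 0.05), 9.44% of genes were higher and 8.52% lower with MIG-Hhex. These shares are the background for each count of listed genes below. With the replicate block 12.4% of genes were higher. Without the flow cell term 119 of the 12161 genes were higher and 98 lower. A shift in the number of cells of a type and a change in RNA per cell cannot be told apart in these libraries.

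Apoe, Entrez gene 11816 on the minus strand at chr7:19696244-19701310 (GRCm38), went from a low to a high level. Its log2 value was 2.45, 2.12 and 0.90 in the MIG libraries of WT3, WT691 and WT703, and 4.84, 5.91 and 5.50 in the MIG-Hhex libraries of the same replicates. The lowest MIG-Hhex library therefore lay above the highest MIG library. The differences within a replicate were 2.40, 3.78 and 4.60, smallest in WT3. The fitted fold change was 3.59 on the log2 scale (SE 0.44), or 12.1-fold, from a mean of 1.82 ± 0.81 to 5.42 ± 0.54 (SD, n = 3 each). In level, Apoe moved from the 26.3 percentile of all genes in MIG cells to the 80.3 percentile in MIG-Hhex cells. The fold change was 4.19 without either WT3 library and 3.07 without the MIG library of WT703.

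Apoc2, Entrez gene 11813 at chr7:19671579-19677941 on the minus strand, had the largest difference among the members, and it was similar in the 3 replicates. It read −0.05, −0.15 and −0.49 in MIG cells of WT3, WT691 and WT703 and 4.36, 4.56 and 4.00 in MIG-Hhex cells. The groups did not overlap, and the 3 within-replicate differences of 4.41, 4.70 and 4.49 were close to each other. The fitted fold change was 4.54 (SE 0.18), or 23.2-fold, from −0.23 ± 0.23 to 4.31 ± 0.28 (SD, n = 3 each), and the percentile of its level went from 11.2 to 62.8. Because the MIG values lie near the low end of the table, the size depends on the scale: with a pseudocount of 1 on the linear scale it was 3.49. RefSeq also annotates a readthrough model, Gm44805, over chr7:19671579-19681460, which spans Apoc2 and Apoc4. How the authors' counting treated such overlaps is not given in the sources used here, so reads of Apoc2 and of the readthrough transcript cannot be told apart.

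Among the transporters, Abca1 (Entrez gene 11303, chr4:53030789-53159988, minus strand) was among the lowest genes of the table in MIG cells. Its values there were −5.57, −4.68 and −7.52, and the last of these was the lowest value of any gene in that library. In MIG-Hhex cells it was −4.15, −1.40 and −1.64. The groups did not overlap, but all 6 values were far below the median gene, and the level moved only from the 0.0329 to the 2.21 percentile. The differences of 1.43, 3.28 and 5.89 spanned a wide range, and the fitted fold change was 3.53 (SE 1.06), or 11.6-fold on this scale. It was 2.42 without the MIG library of WT703 and 4.58 without either WT3 library. With a pseudocount of 1 the fold change was 0.28, and the difference lies between values near the low end of the table.

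Abcg1 (Entrez gene 11307, chr17:31057694-31117984, plus strand), which exports cholesterol to high density particles, was low as well. The MIG libraries read −0.34, −2.49 and −1.83 and the MIG-Hhex libraries −0.01, −0.70 and −0.57. MIG WT3 was above MIG-Hhex WT691 and WT703, so the groups overlapped, although the value was higher with MIG-Hhex in each of the 3 replicates, by 0.33, 1.79 and 1.26. The fold change was 1.13 (SE 0.36), or 2.18-fold, and 0.33 with a pseudocount of 1.

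The receptors themselves differed little. Nr1h2, which encodes liver X receptor beta (Entrez gene 22260, chr7:44549616-44553968, minus strand), was 5.14, 4.55 and 4.47 in MIG cells and 5.19, 4.62 and 4.58 in MIG-Hhex cells. Each replicate was higher with MIG-Hhex by only 0.05, 0.08 and 0.11, which is far less than the spread between replicates within a vector. The fold change was 0.08 (SE 0.05), or 1.06-fold, and it became −0.065 after a trend with GC content was removed. Nr1h3, which encodes liver X receptor alpha, the form of macrophages and liver (Entrez gene 22259, chr2:91184061-91202829, minus strand), was 1.15, 0.15 and −0.97 in MIG cells and 1.09, 0.15 and 0.09 in MIG-Hhex cells. The groups overlapped, and only WT703 differed by more than 0.1 between the vectors, by 1.06. The digits of the WT691 pair were identical, as they were for 27 to 91 genes per pair when all pairs of libraries were compared. The fold change was 0.34 (SE 0.32), and −0.038 without the MIG library of WT703.

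The remaining targets also had small differences. Mylip encodes an E3 ubiquitin ligase that lowers lipoprotein uptake (Entrez gene 218203, chr13:45389742-45411940, plus strand). It was 0.49, −0.30 and 0.21 in MIG cells and 0.78, 0.21 and 0.11 in MIG-Hhex cells. The within-replicate differences of 0.30, 0.50 and −0.10 differed in sign, and the fold change was 0.23 (SE 0.20). Srebf1 encodes a transcription factor that drives fatty acid synthesis (Entrez gene 20787, chr11:60199084-60224186, minus strand). Its values were 4.82, 4.58 and 4.53 in MIG cells and 5.11, 4.96 and 4.68 in MIG-Hhex cells. All 3 replicates were higher with MIG-Hhex, by 0.30, 0.38 and 0.15, but MIG WT3 exceeded MIG-Hhex WT703, so the groups overlapped. The fold change was 0.27 (SE 0.08), or 1.21-fold, and 0.14 once the GC trend was removed. Of the 2 members with the relaxed repeat in their windows printed above, Abca1 thus had a large difference at a very low level and Srebf1 a small one at a high level.

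**Figure D1:**
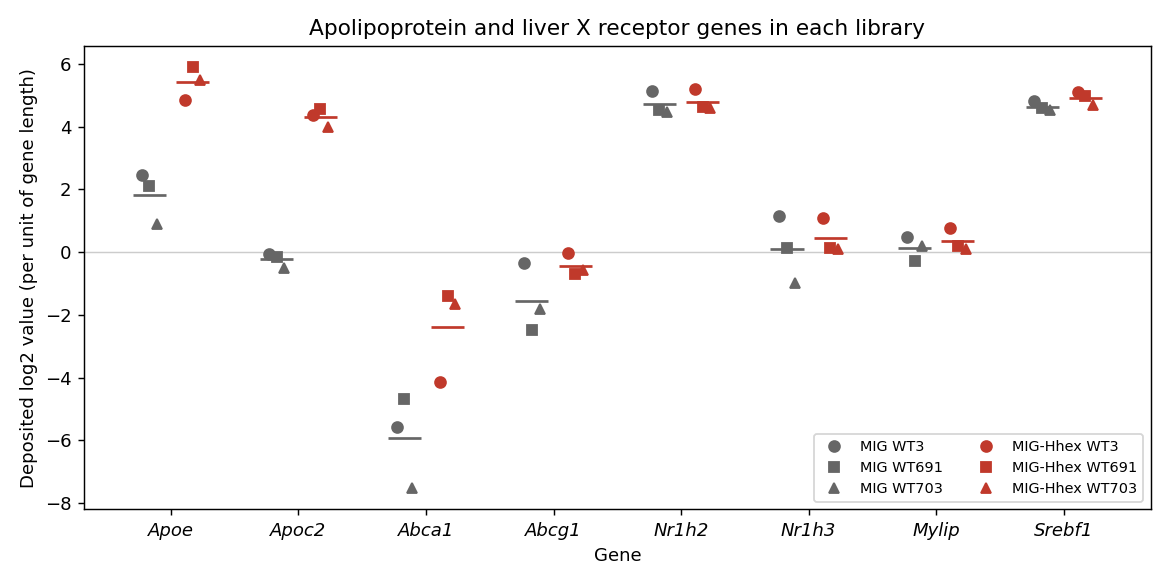
Deposited log2 value (vertical axis, per unit of gene length) of the 8 genes in each library, with grey symbols for MIG, red symbols for MIG-Hhex, symbol shapes for the replicates and bars for the mean of 3 libraries. The red symbols lie wholly above the grey ones for Apoe, Apoc2 and Abca1, and the colours mix or nearly coincide for the other 5 genes.

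Counted over the members, 2 of 8 passed the threshold of the fit over all genes with higher values, Apoe and Apoc2, and 0 passed with lower values. Over all genes the shares were 9.44% higher and 8.52% lower. With the replicate number as a block, 4 of 8 passed, the additional ones being Abca1 and Srebf1, where 12.4% of all genes passed as higher. The 3 MIG-Hhex libraries lay above the 3 MIG libraries for 3 of 8 members and for 10.2% of all genes. All 3 within-replicate differences were positive for 6 of 8 members and for 27.5% of all genes. The median fold change of the members was 0.73, beside −0.02 over all genes. Since the members were chosen with this contrast known, these counts describe them and support nothing further. Genes higher with MIG-Hhex had a median transcript GC content of 54.1%, beside 50.1% over all genes with a value and 47.6% for genes lower. The members ran from 47.5% in Abca1 to 60.6% in Nr1h2, with 59.5% in Apoe and 56.5% in Apoc2, whose fold changes with the GC trend removed were 3.46 and 4.42.

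**Figure D2:**
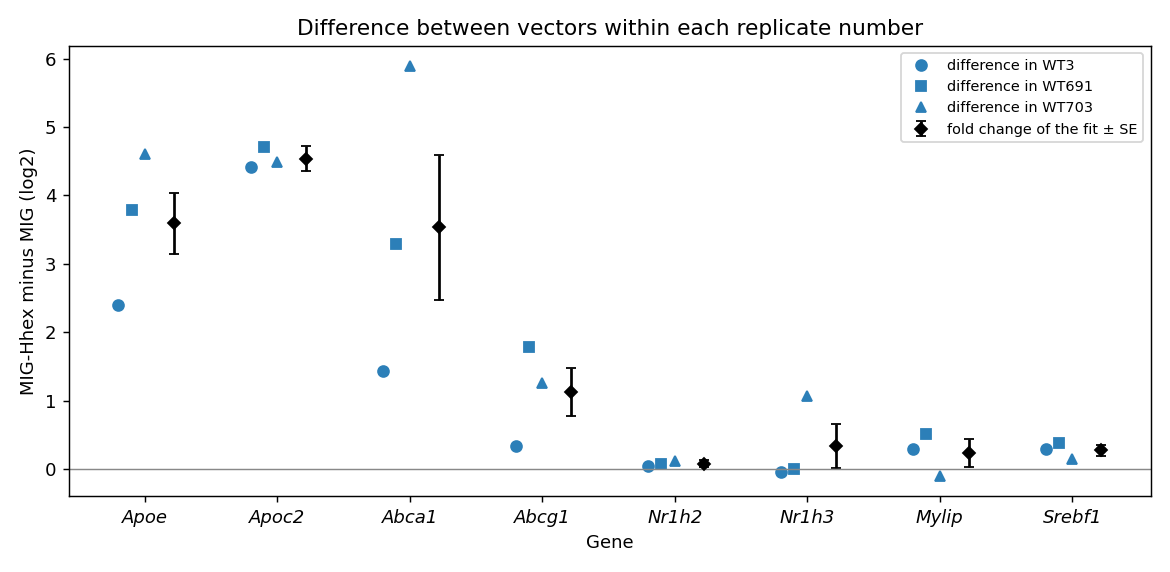
Differences between MIG-Hhex and MIG on the log2 scale (vertical axis) for each gene, with blue symbols for the 3 replicates and a black diamond for the fitted fold change with its standard error. The symbols are tightly grouped for Apoc2 and Nr1h2 and are spread widely for Apoe and Abca1, from 2.40 to 4.60 and from 1.43 to 5.89.

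The order of the levels per length also differed between the vectors. In MIG cells Nr1h2 (4.72 ± 0.37) and Srebf1 (4.65 ± 0.15) were highest and overlapped each other (SD, n = 3). Apoe came next, apart from Srebf1 above and Mylip below, but its lowest value (0.90) lay under the highest of Nr1h3 (1.15). Mylip, Nr1h3, Apoc2 and Abcg1 followed, each overlapping the next, and Abca1 (−5.92 ± 1.46) was apart at the bottom. In MIG-Hhex cells Apoe (5.42 ± 0.54), Srebf1 (4.92 ± 0.22) and Nr1h2 (4.80 ± 0.34) were highest, each overlapping the next. Apoc2 (4.31 ± 0.28) lay apart below them, then Nr1h3 and Mylip, which overlapped, then Abcg1 (−0.43 ± 0.36), and Abca1 (−2.39 ± 1.52) was again lowest. The 2 apolipoprotein genes therefore reached the levels of Srebf1 and Nr1h2 or came near them. The means of the transporters stayed below those of Nr1h3 and Mylip in both groups. In MIG cells, however, the highest value of Abcg1 (−0.34) lay above the lowest of Nr1h3 (−0.97).

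Apart from the members, few apolipoprotein genes were measured: 5 of 22 listed, and among them are genes for an apolipoprotein receptor, an editing enzyme and mitochondrial proteins. Only Clu, the lipid-binding secreted chaperone also called apolipoprotein J, rose, from 2.67 ± 0.34 to 4.11 ± 0.44 (SD, n = 3 each), by 1.44 (SE 0.25, limma adjusted p = 0.013), and it stayed under the threshold in 9 of 9 analyses with a replicate or library left out. Without the flow cell term 0 of the 5 rose (adjusted p = 0.060 for Clu), and with the replicate block 2 rose, Clu and the receptor gene Apobr. The median of the 5 was 0.22. Apoc1 and Apoc4, which lie between Apoc2 and Apoe, were not analysed here.

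The partners and co-regulators of the receptors were measured almost completely, 17 of 18 genes, and 3 rose and 0 fell, with a median of 0.07. Rxra, one of the retinoid X receptors that pair with liver X receptors on DNA, was 0.93, 0.76 and 0.34 in MIG cells and 2.19, 2.52 and 2.35 in MIG-Hhex cells. The groups did not overlap, and it rose by 1.67 (SE 0.19, limma adjusted p = 0.0036), while Rxrb, the other measured member of its family, had a fold change of 0.05 at a level near 5. Ncor1, a corepressor that nuclear receptors bind without ligand, had a fold change of −0.01. Ep300, a histone acetyltransferase that serves as coactivator, rose by 0.30 (adjusted p = 0.038). Rxra stayed under the threshold in 9 of 9 analyses with a replicate or library left out and without the flow cell term (0.020), where 1 gene of the list rose, and Ep300 lost its call in 8 of 9, with an adjusted p of up to 0.14.

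Of 30 further known targets of liver X receptors, 20 were measured, and 5 rose and 2 fell, with a median of 0.16. Arl4c, a small GTPase linked to cholesterol transport, rose most, by 1.80 (SE 0.23, limma adjusted p = 0.0052), from 0.68 ± 0.40 to 2.48 ± 0.25 (SD, n = 3 each). Without replicate WT703 its adjusted p was 0.0576. The other genes that rose did so by small amounts: Scd2, a fatty acid desaturase, by 0.36, the transporter gene Abca7 by 0.34, the ubiquitin ligase gene Rnf145 by 0.29 and the desaturase gene Fads2 by 0.27. Among the genes that fell was Smpdl3a, a phosphodiesterase (−1.09, SE 0.25), which lost its call in 6 of 9 analyses with a replicate or library left out, with an adjusted p of up to 0.15. Cd5l, a macrophage protein, had the largest fold change of the list, 2.95, but its SE was 1.23, its values ran from −5.19 to 0.15 and it did not pass (adjusted p = 0.145). Textbook targets in lipid metabolism did not pass either, with fold changes of 0.04 for Fasn, −0.38 for Scd1, 0.24 for Lpcat3 and −0.23 for Lpl. With the replicate block 8 rose and 3 fell, the genes gained being Acsl3, Fads1, Lpcat3 and Npc1. With libraries scaled to a common median, or by quantiles, 3 rose, without the flow cell term 1 rose and 0 fell, and without replicate WT703 0 rose.

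**Figure D3:**
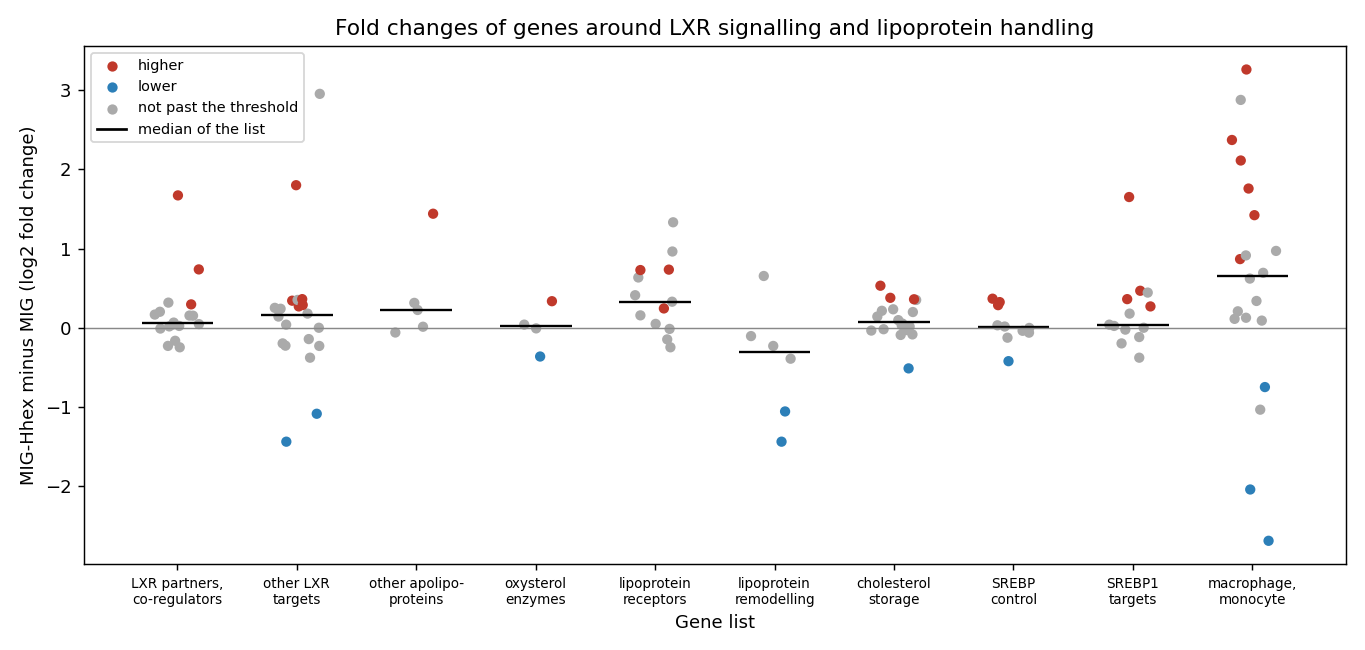
Fold change with MIG-Hhex on the log2 scale (vertical axis) of every measured gene in 10 gene lists, members excluded, in red where higher, blue where lower and grey where not past an adjusted p of 0.05, with a black bar for the list's median. The medians of the lists lie between −0.31 and 0.66, with single genes such as Rxra and Clu well above the rest of their lists. Among the further receptor targets, Cd5l, which did not pass, lies highest, followed by Arl4c.

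Receptors that take up lipoproteins, some of which bind Apoe, were measured for 13 of 15 genes, and 3 rose and 0 fell, with a median of 0.33. Olr1, a receptor for oxidised lipoprotein, rose by 0.73 (SE 0.12) and Lrpap1, a chaperone of this receptor family, by 0.24 (SE 0.07), and they lost their calls in 4 and 8 of the 9 analyses with a replicate or library left out, with a limma adjusted p of up to 0.0581 and 0.16. The scavenger receptor Scarb1 had a fold change of 0.16 and Lrp1, a large receptor for Apoe, 0.63 (SE 0.24). With the replicate block 6 rose and 1 fell, with Lrp1, Sorl1 and Lsr gained as higher and Lrp8, the Apoe receptor 2 gene, gained as lower. With the WT3 pair left out 1 rose, as it did without the flow cell term.

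Genes of lipoprotein remodelling were measured for 6 of 12 listed, and 0 rose and 2 fell, with a median of −0.31. They include lipoprotein lipase, on which Apoc2 acts, and genes that control it, but also others such as Lipg and Mttp. Angptl4, which inhibits lipoprotein lipase, was 4.24, 4.01 and 4.21 in MIG cells and 3.50, 2.90 and 2.90 in MIG-Hhex cells. The groups did not overlap, it fell by 1.06 (SE 0.11, limma adjusted p = 0.0031), and it kept its call in 9 of 9 analyses with a replicate or library left out. Without the flow cell term its adjusted p was 0.0553 and 0 of the 6 fell. Lpl, the lipase itself, was 3.78, 2.53 and 2.63 in MIG cells and 3.42, 2.26 and 2.56 in MIG-Hhex cells and did not pass (−0.23, SE 0.11). The within-replicate differences of Lpl were −0.36, −0.26 and −0.07, so it was lower with MIG-Hhex in every replicate, although the groups overlapped. In every replicate its activator Apoc2 was higher and its inhibitor Angptl4 lower with MIG-Hhex, and for both the groups did not overlap.

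Inside the cell, 18 of 19 genes of cholesterol storage and transport were measured, and 3 rose and 1 fell, with a median of 0.08. These were Soat2, which esterifies cholesterol, by 0.53, Stard3, a cholesterol transfer protein of late endosomes, by 0.38, Osbpl2, an oxysterol-binding protein, by 0.36, and Lipa, the lysosomal acid lipase, which fell by 0.51. Without replicate WT3, without WT703 or without the flow cell term, 0 rose, and with the replicate block 5 rose, Npc1 and Plin3 added. Of 4 measured enzymes that make or break down oxysterols, of 8 listed, Hsd3b7 rose by 0.34 and Cyp11a1 fell by 0.36. All 10 genes that control the processing of sterol response proteins were measured, and 3 rose and 1 fell, with a median of 0.01. Insig1, which retains these proteins in the endoplasmic reticulum, rose by 0.37 (SE 0.06), and Srebf2, the paralogue of Srebf1 that drives cholesterol synthesis, by 0.32 (SE 0.05), a size like that of Srebf1. Without replicate WT703 or without the flow cell term 0 of the 10 rose. Without replicate WT703 the limma adjusted p of Insig1 and Srebf2 was 0.0591 and 0.0628.

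Fatty acid genes known as targets of the Srebf1 protein were measured for 13 of 14, and 4 rose and 0 fell, with a median of 0.04. Elovl6, a fatty acid elongase, rose by 0.47 (SE 0.05, limma adjusted p = 0.0024), with 0.48, 0.45 and 0.47 in the 3 replicates. Acacb, the mitochondrial acetyl-CoA carboxylase, rose by 1.65 (SE 0.35) at values below 0 in all 6 libraries. Scd2 and Fads2 were counted above as receptor targets. Elovl6 kept its call in 9 of 9 analyses with a replicate or library left out, and Acacb lost it in 8 of 9, with a limma adjusted p of up to 0.12. Without the flow cell term 0 of the 13 rose (0.265 for the adjusted p of Elovl6), and with the replicate block 6 rose, Fads1 and Acss2 added.

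Macrophages are a known main source of Apoe, so their markers were set beside it. Of 23 macrophage and monocyte markers 20 were measured, and 6 rose and 3 fell, with a median of 0.66. Marco, a scavenger receptor of tissue macrophages, rose by 3.26 (SE 0.66), from −3.93 ± 0.95 to −0.67 ± 1.05 (SD, n = 3 each). These values lie near the low end of the table. The complement genes C1qb and C1qc rose by 2.37 and 2.11. Their values overlapped between the groups and went down to −4.13 and −2.29 in MIG cells. Spic, a factor of red pulp macrophages, rose by 1.76, and Adgre1, which encodes F4/80, by 1.42. Among the genes that fell, the monocyte genes F13a1 and Ccr2 fell by 2.69 and 2.04. The summed linear level of the list ran from 489 to 1575 in MIG libraries and from 514 to 1924 in MIG-Hhex libraries, highest in WT3 in both. Much of that sum is Lyz2 and Ly6c2, which monocytes and granulocytes also express. The complement gene C1qa was −4.16 to 0.45 in MIG cells and 0.05 to 1.67 in MIG-Hhex cells, and Mertk, Siglec1 and Timd4 were not analysed here. Marco lost its call in 6 of 9 and C1qb in 7 of 9 analyses with a replicate or library left out, with a limma adjusted p of up to 0.0995 and 0.19. With the replicate block 10 rose and 4 fell, without either WT3 library 1 to 2 rose, and without the flow cell term 0 rose and 1 fell. The part of such cells in the values of Apoe and Apoc2 was not tested.

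Markers of other myeloid cells were read as well. Of 10 dendritic cell markers 6 were measured, and 4 rose and 0 fell, with summed levels of 32.0 to 50.8 in MIG libraries and 43.7 to 54.7 in MIG-Hhex libraries and a median of 0.997. Itgax, which encodes the integrin CD11c, was −1.66, −0.89 and −0.31 in MIG cells and 1.32, 2.68 and 2.27 in MIG-Hhex cells. The groups did not overlap, it rose by 3.04 (SE 0.22, limma adjusted p = 0.0012), and it kept its call in 9 of 9 analyses with a replicate or library left out. The transcription factor gene Irf8 rose by 0.54 (SE 0.06, adjusted p = 0.0037). Zbtb46, a factor of classical dendritic cells, and Ccr7 lost their calls in 9 of 9 analyses, and Zbtb46 was below 0 in all 6 libraries. With any replicate or library left out 2 genes of the list rose, without the flow cell term 1, and with the replicate block Flt3 was added as lower. The part of such cells was not tested either. Of 14 eosinophil, mast cell and basophil markers 11 were measured, and 3 rose and 3 fell, with summed levels of 217 to 489 and 230 to 376. They include the lipoxygenase gene Alox15, whose values did not overlap between the groups and which rose in all 3 replicates, and Cpa3, the mast cell carboxypeptidase, which fell by 2.19. Without the flow cell term 2 rose and 0 fell. Of 10 markers of the lineage gate 5 were measured, and Cd5 rose and Ptprc fell, each losing its call in 6 of 9 analyses with a replicate or library left out, with a limma adjusted p of up to 0.13 and 0.14.

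Apoe and Apoc2 are neighbours on chromosome 7, so the genes around them were read in the same fit. Clptm1, on the Apoc2 side, had a fold change of 0.12 (SE 0.08). Tomm40, a mitochondrial import gene whose model lies 2 bases from that of Apoe, was 7.33, 6.99 and 7.04 in MIG cells and 7.23, 6.90 and 6.87 in MIG-Hhex cells, a fold change of −0.12 (SE 0.05, limma adjusted p = 0.147). Tomm40 therefore overlapped between the groups although it adjoins Apoe and was more abundant in every library. Further out, Pvrl2, a nectin adhesion molecule, had 0.86 (SE 0.29, adjusted p = 0.0873) and Relb, a subunit of NF-kappa-B, 0.91 (SE 0.27, adjusted p = 0.0631). With the replicate block these passed, at 0.034 and 0.0301. Bcam, a laminin-binding adhesion molecule 54.8 kb from the pair, was −2.53, −1.76 and −1.21 in MIG cells and −0.20, 1.98 and 1.35 in MIG-Hhex cells. The groups did not overlap, and Bcam rose by 2.88 (SE 0.31, adjusted p = 0.0031), the largest fold change after Apoc2 and Apoe among the measured genes within 500 kb. In all, 3 of 15 other genes whose spans start within 250 kb rose, Bcam, Bcl3 and Trappc6a, and 0 fell, with a median of 0.03. Over all genes 9.44% rose and 8.52% fell. With a replicate or library left out 1 to 2 of the 15 rose, Bcam in each case. With the replicate block 5 rose, where 12.4% of all genes were higher. Without the flow cell term 0 rose (adjusted p = 0.0812 for Bcam), where 119 of 12161 genes were higher. Within 500 kb 5 of 25 rose, adding Klc3, a kinesin light chain, by 2.04 and Vasp by 0.42.

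**Figure D4:**
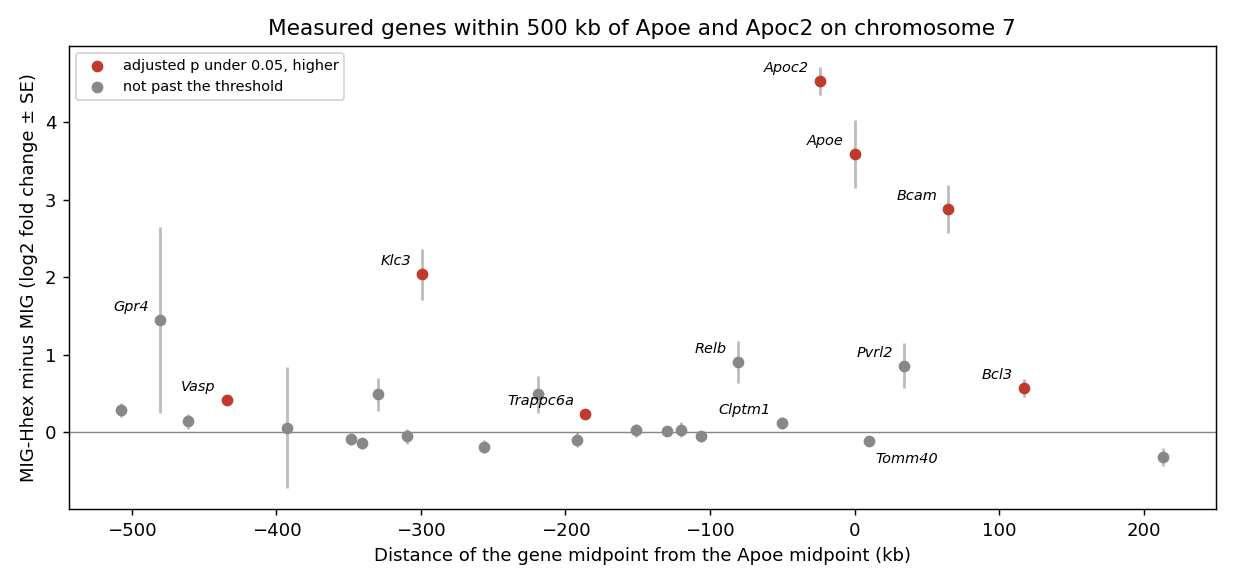
Fold change with MIG-Hhex on the log2 scale with its standard error (vertical axis) for each measured gene within 500 kb of Apoe and Apoc2, against the distance of the gene's midpoint from that of Apoe in kb (horizontal axis), in red where past an adjusted p of 0.05. Apoc2, Apoe and Bcam stand above the others, and Tomm40, next to Apoe, lies slightly below 0.

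Across the 6 libraries, the pattern of Apoe was most like that of Rxra (Pearson r = 0.997), followed by Fam129b (0.996), Tmem26 (0.996), Ublcp1 (0.995) and Plekhg5 (0.995). Genes without a symbol, or with a symbol that starts with Gm or ends in Rik, were left out of this ranking. Among the remaining genes Apoc2 ranked 95 (r = 0.967) and Hhex ranked 134 (r = 0.960). The pattern of Apoc2 was most like that of Gsn, the actin-severing protein gelsolin (r = 0.998), Dapk2 (0.998), Acsl1, a fatty acid CoA ligase (0.998), Atp13a2 (0.997) and Adgre5 (0.997). Such high values are common here, with 194 of the ranked genes above 0.95 for Apoe and 184 for Apoc2, and the 6 points share the difference between the 2 groups. Of the 10 genes, Gsn rose by 2.44 (SE 0.14) and Dapk2, a death-associated kinase, by 3.92 (SE 0.26), and Fam129b, by 0.62, and Acsl1, by 0.59, had the smallest fold changes. The correlations describe 6 libraries and carry no test.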

How the data were processed

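Messenger RNA-seq of 6 libraries was analysed, 3 with MIG and 3 with MIG-Hhex, grouped by the vector label. The authors deposited 1 table of log2 values per library for 12161 genes. Subread, featureCounts, limma, edgeR and build mm10 are named in the submitters' processing notes, with no version or order, and how the values were normalized is not given there. The 1st percentile of the values was −1.92 in the shortest and −4.46 in the longest eighth of genes, as for values per length. Depth is unknown, so no count test was run.

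limma 3.58.1 (R 4.3.3) was fitted to all genes with flow cell and vector as terms, a mean-variance trend and 3 residual degrees of freedom. Tests were two-sided, adjusted by Benjamini-Hochberg over all genes, with a threshold of 0.05. A filter on values above the library minimum in at least 3 libraries removed 0 genes. The script was tested on simulated data. Members have no test, because they and the gene lists were chosen with earlier results of these data known. Named genes are the members, up to 3 passing genes per list with 1 sign in all 3 replicates by largest fold change, all genes within 60 kb of Apoe and Apoc2, the 5 genes most like each of these, and Hhex. Genes named beyond this rule were chosen after their values were seen. The replicate numbers were assumed to pair the samples. Same-number deviations from group means correlated at 0.74, 0.58 and 0.66, but these deviations still hold the flow cell difference. They therefore cannot show whether the libraries of WT691 and WT703 are paired by number. Coordinates and promoters are from RefSeq on GRCm38.p6. A few list genes are not reported here.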

Additional observations from a re-analysis of the deposited data

How the results depend on the processing

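Read depth is unknown and each group has 3 libraries, which limits precision most for Abca1, Abcg1 and other genes with values below 0. Genes higher with MIG-Hhex numbered 1148 and genes lower 1036. They numbered 119 and 98 without the flow cell term, 698 and 519 on flow cell C5LWPANXX alone, and 355 to 835 and 270 to 634 with a replicate or library left out. With the replicate block they numbered 1506 and 1473. Genes lower numbered 638 with no mean-variance trend and 1593 with the GC trend removed and the replicate block. The replicate block moved the count of passing members to 4, with Abca1 and Srebf1 added, and with the GC trend removed as well it was 3. In the analyses with a library left out it was 2 to 3, with Srebf1 added without the MIG-Hhex library of WT703. The block changed no call of another member. A pseudocount of 1 gave fold changes of 3.49 for Apoc2, 0.28 for Abca1 and 0.33 for Abcg1, which have values below 0, and that of Apoc2 was 4.36 to 4.68 with a library left out. Removing the GC trend, with or without the block, gave −0.065 for Nr1h2 and 0.14 for Srebf1; the cause was not tested. Nr1h3 ranged from −0.038 to 0.60 with a library left out, with −0.025 without replicate WT703 and −0.038 without its MIG library. Ranges with a library left out were 3.07 to 4.19 for Apoe, 2.35 to 4.58 for Abca1, 0.79 to 1.52 for Abcg1, 0.05 to 0.10 for Nr1h2, 0.10 to 0.40 for Mylip and 0.20 to 0.36 for Srebf1. Abca1 and Abcg1 gave no value under a filter on a mean of at least 0. Genes higher near Apoe and Apoc2 numbered 1 within 100 kb and 5 within 500 kb, and for the 250 kb window 0 without the flow cell term, 1 with no mean-variance trend, 5 with the replicate block and 1 to 2 with a replicate or library left out. These alternative fits for the neighbourhood and for the count of members, and counting by the gap between genes, which gave 3 as by start, were chosen after seeing the data. The strict repeat was found in the windows of 0 members. Where a replicate or library left out leaves 1 sample in an arm, that sample is assumed to vary like the others.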
